A study of Bos taurus with 12 samples.

Results

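Interferon tau and the genes of the type I interferon response were examined in cattle embryos before and at the start of elongation. The set was a list of 50 gene symbols, and a probe set belonged to it when its only gene symbol was on the list. By that rule 51 probe sets of 34 genes were found, of 24016 probe sets tested and 9155 genes with a probe set of their own on the array. The other 16 symbols, ADAR, BST2, DDX58, RIGI, IFIH1, IFIT1, IFIT3, IFITM2, IFITM3, IFNGR1, IRF1, JAK2, OAS2, SAMHD1, SOCS1 and TYK2, had no probe set that named them alone (DDX58 and RIGI name the same gene), so they were not analysed here.

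RNA from 12 pools of whole embryos had been hybridised to Affymetrix bovine arrays, 1 pool per array and 3 pools in each of 4 groups. Day 13 conceptuses of in vitro origin had started as blastocysts made by in vitro fertilisation, and Day 13 conceptuses of in vivo origin as blastocysts from superovulated animals. Both kinds had been placed in synchronised heifers, 10 to a recipient, and each Day 13 pool held 5 conceptuses. The Day 7 groups were in vitro and in vivo blastocysts frozen without transfer, with 25 blastocysts in each pool. All Day 13 conceptuses had therefore spent time in a uterus, whatever their origin. The labels call the pools biological replicates but do not say whether pools shared sires, donors or recipients, so p-values measure the spread between these pools.

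Interferon tau is the signal by which the ruminant conceptus announces pregnancy. The trophectoderm secretes it, it binds the type I interferon receptor on uterine cells, and it stops the uterus from releasing the prostaglandin that would end the life of the corpus luteum. Inside a responding cell the receptor kinases activate STAT and IRF transcription factors, which switch on interferon-stimulated genes such as ISG15, MX1 and the IFIT family. Those genes are best known in this setting from the endometrium and from blood leukocytes of pregnant animals, and here they were measured in the embryo itself.

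Levels are deposited log2 probe set intensities, in which a difference of 1 is a doubling. A level above 3.39, the 99th percentile of 48 control probe sets with no matching RNA added, was counted as above background. Each gene stands by its brightest probe set, and levels of different genes are not compared, since probe sets differ in brightness for the same amount of RNA. A gene was called when the limma adjusted p (Benjamini-Hochberg over all 24016 probe sets) was below 0.05. Errors beside levels are SD over 3 pools, and errors beside differences are standard errors (SE). In whole embryos, fewer cells of a type and less RNA per cell cannot be told apart.

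Most of the 34 measured genes were not detectable in these embryos. Of the 34 measured genes, 8 (23.5%) exceeded background on at least 3 arrays, against 5803 of all 9155 genes (63.4%). On every array 22 of the 34 (64.7%) stayed at background, against 2800 of all genes (30.6%). The 8 genes above background were IFNT2, JAK1, IRF3, IRF7, USP18, IFIT5, IFI35 and IFITM1. Of these USP18, IRF7 and IFITM1 repeat 1 value, 5.01, 5.19 and 6.18, on 8, 6 and 5 of the 12 arrays. Whether a repeated value is a level of the gene or a floor of its own probe set was not tested, so the count of 8 rests in part on values that may not be expression. A further 4 exceeded it on 1 or 2 arrays: EIF2AK2, TRIM25, STAT2 and PARP9. The difference in these shares was not tested, and a probe set at background sets only an upper bound on its RNA.

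**Figure D1:**
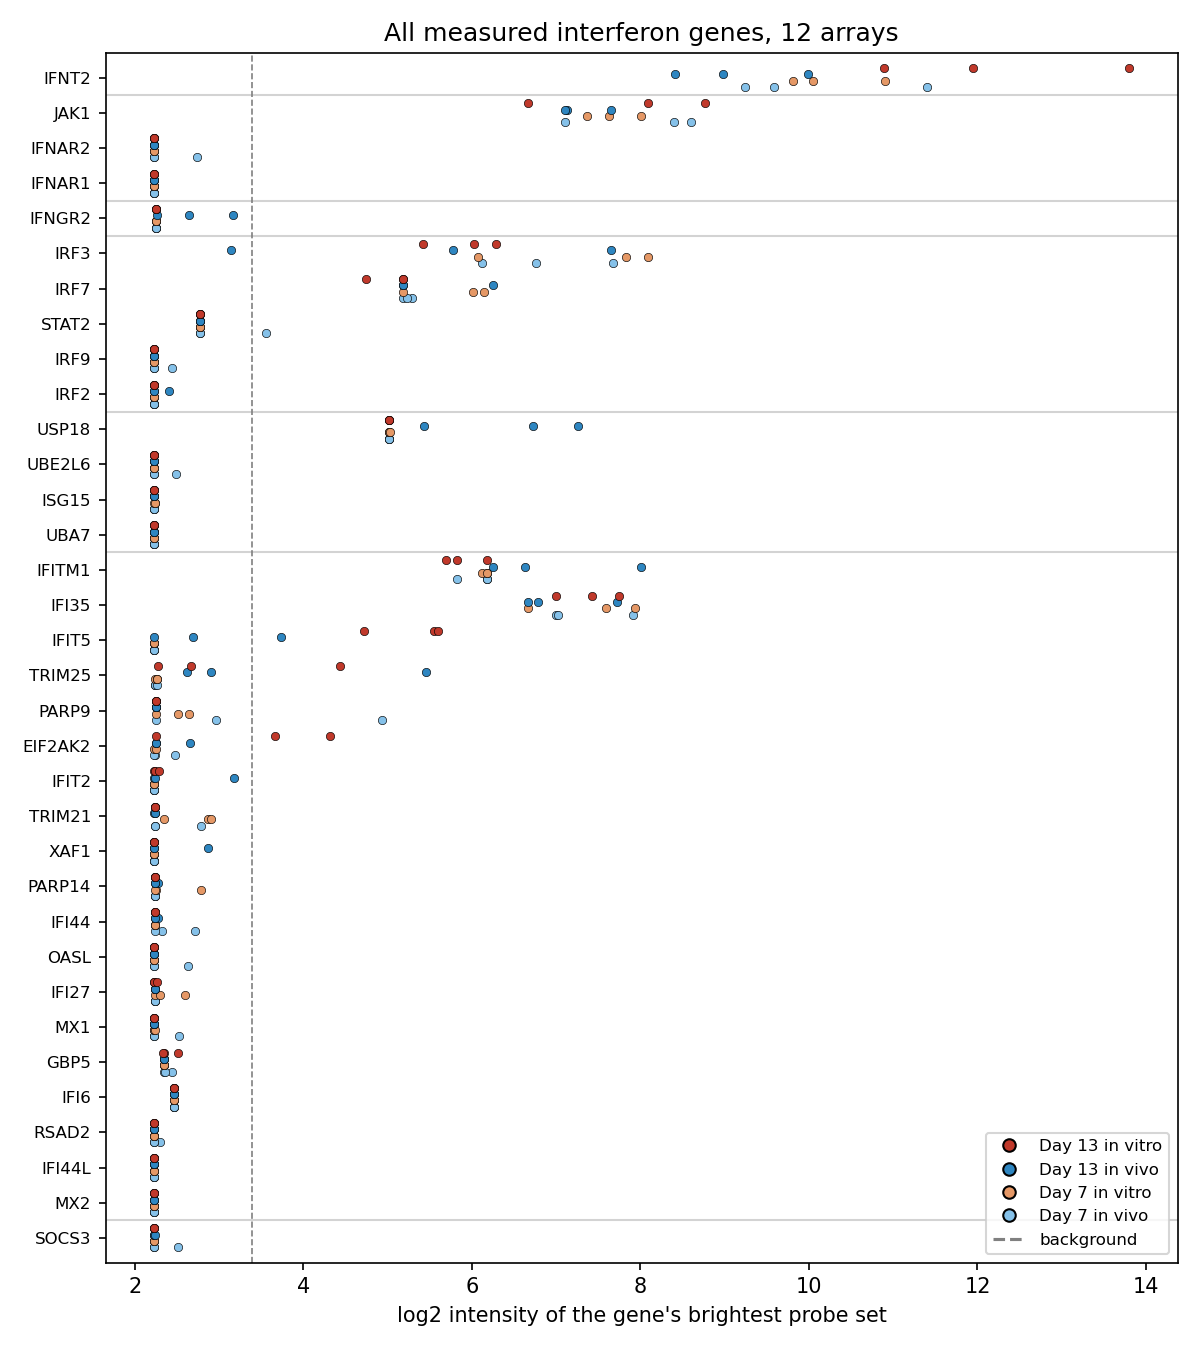
Level of each of the 34 measured genes (rows, grouped by role) on each of the 12 arrays, in log2 intensity, with the background of 3.39 marked. The 22 genes that never pass the line sit near the bottom of the scale in all groups, and IFNT2 lies far to the right of it on all 12 arrays.

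Trophoblast markers were well represented, and most markers of maternal cells were not. Of 13 trophoblast marker genes 12 were measured, and all 12 exceeded background on every Day 13 in vitro array, 10 on every Day 13 in vivo array and 8 on every array of either Day 7 group. Of 17 measured blood and immune cell markers, 16 stayed at background on all Day 13 in vitro arrays, 14 on Day 13 in vivo arrays, 16 on Day 7 in vitro arrays and 12 on Day 7 in vivo arrays, and PTPRC, CD3E and CD14 were among those at background. The others included CD8A, above background in all Day 13 pools at 3.76 to 4.88, and HBB, a globin of red blood cells. HBB lay at 2.23 to 3.42 in the Day 13 pools, against 5.08 to 8.49 in the Day 7 pools, and was called lower at Day 13 in both origins (adjusted p = 0.0157 in vitro and 0.0224 in vivo). Of 12 measured uterine markers 9 to 11 stayed at background in each group, among them PGR and OXTR, and PECAM1 exceeded background on all 12 arrays, at 3.92 to 6.97. Correlations between replicate arrays, taken over probe sets, ran from 0.963 to 0.991, and each array had 41.3% to 42.0% of probe sets above background. The poly-A controls, RNAs added before labelling, averaged 9.27, 10.50 and 12.99 on Day 13 in vitro replicates 1, 2 and 3, against 13.34 to 14.96 on the other 9 arrays. The hybridisation controls were lowest on replicates 1 and 2 of the same group, at 10.38 and 10.84, against 11.84 to 13.29 elsewhere. Day 13 in vitro replicates 1 and 2 therefore stood apart in both kinds of control. The IFNT2 differences and several of the called differences that rest on those replicates are also given without them. Without them 1 array is left in that group, so those differences are given with no SE or p. Calls not given without them include those of HBB, APOA2, STAT3 and the second ETS2 probe set. The 3' minus 5' signal of GAPDH, a sign of RNA quality and labelling, also moved with the groups. It was 2.53, 2.61 and 4.17 in Day 13 in vitro arrays, 2.85 to 4.62 in Day 13 in vivo arrays, 3.40 to 4.19 in Day 7 in vitro arrays and 5.58 to 5.65 in Day 7 in vivo arrays. Its part in the differences between days and origins was not tested.

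The signal itself came first. IFNT2, which encodes interferon tau, was far above background on all 12 arrays, at Day 7 as well as at Day 13. In Day 13 conceptuses of in vitro origin it measured 13.80, 11.95 and 10.89, against 8.41, 8.99 and 9.98 in those of in vivo origin. Day 7 blastocysts measured 10.05, 9.82 and 10.90 when made in vitro, against 9.59, 9.24 and 11.40 when made in vivo. At Day 13 every in vitro pool was higher than every in vivo pool, while at Day 7 the 2 origins overlapped. The lowest Day 13 in vitro pool, at 10.89, lay below single Day 7 pools at 10.90 and 11.40.

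IFNT2 averaged 12.21 ± 1.47 in Day 13 in vitro conceptuses, 9.13 ± 0.80 in Day 13 in vivo conceptuses, 10.25 ± 0.57 in Day 7 in vitro blastocysts and 10.08 ± 1.16 in Day 7 in vivo blastocysts (SD, n = 3 each). Ordered from high to low, only the first step in that order, to the Day 7 in vitro mean, was wider than the SD of either neighbour. Each later step, from the Day 7 in vitro to the Day 7 in vivo mean and on to the Day 13 in vivo mean, was narrower than the larger SD of its neighbours.

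At Day 13 the in vitro conceptuses exceeded the in vivo ones by 3.08 ± 0.84 in IFNT2 (log2 difference ± SE, 95% interval 1.15 to 5.01), with an adjusted p of 0.13 in limma, so the difference was not called. The IFNT2 difference between Day 13 and Day 7 was 1.96 ± 0.84 in embryos made in vitro (0.03 to 3.89, adjusted p = 0.253) and -0.95 ± 0.84 in embryos made in vivo (-2.88 to 0.98, adjusted p = 0.669). Neither was called. The day difference itself differed between the origins by 2.91 ± 1.19 (in vitro minus in vivo, adjusted p = 0.454), and at Day 7 the origins differed by 0.18 ± 0.84 (-1.75 to 2.11). The intervals leave room for changes of several fold in either origin.

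**Figure D2:**
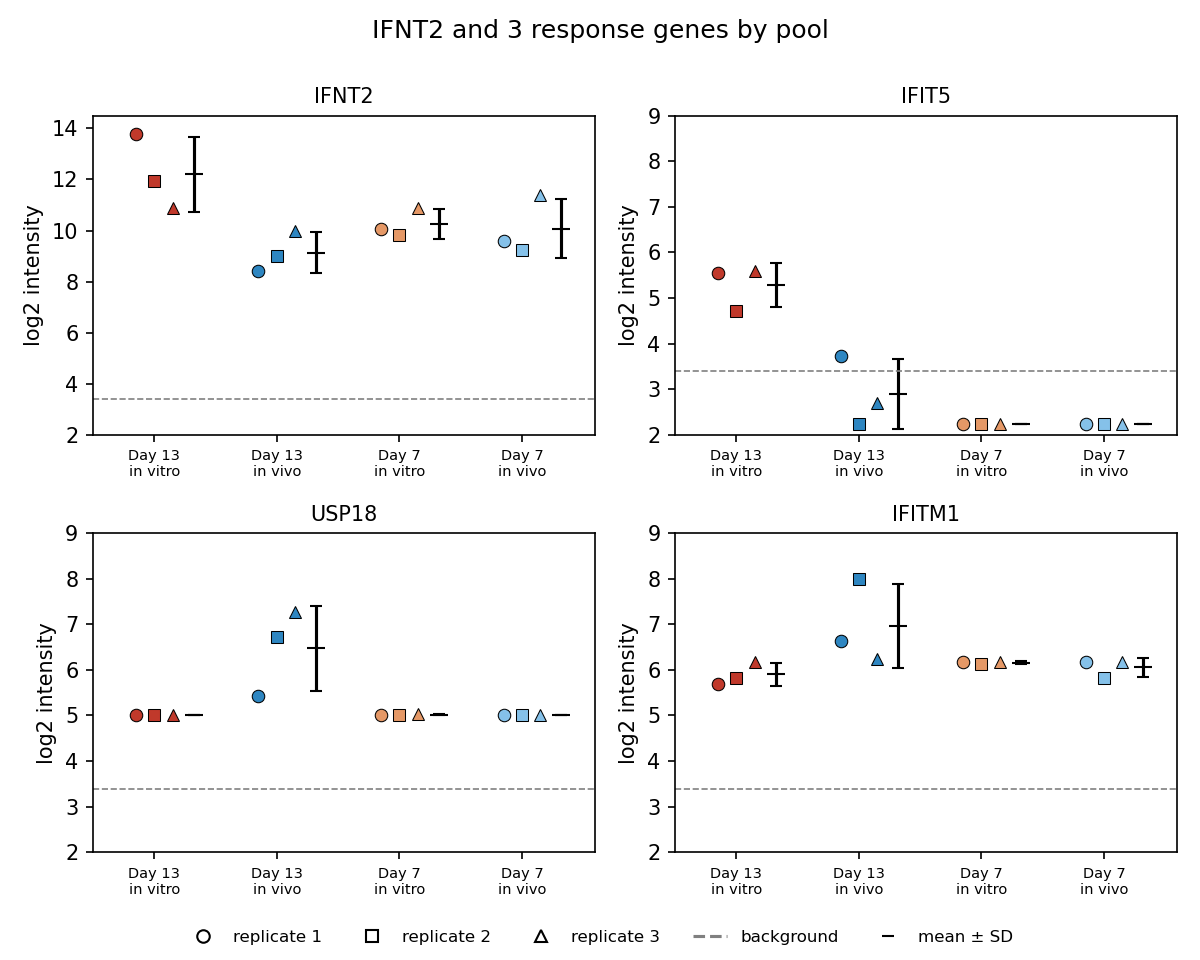
Level of IFNT2, IFIT5, USP18 and IFITM1 on each of the 12 arrays, in log2 intensity by group, with points for pools (shape gives the replicate) and bars for group means ± SD. The mean of IFNT2 and all pools of IFIT5 are highest in the Day 13 in vitro group, whereas all pools of USP18 and IFITM1 are highest in the Day 13 in vivo group.

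The IFNT2 values of the Day 13 in vitro pools ran opposite to their poly-A controls: replicate 1, with IFNT2 at 13.80, had the lowest control mean of 9.27, and replicate 3, with IFNT2 at 10.89, had the highest of 12.99. Without replicates 1 and 2, which leaves 1 array in that group, the IFNT2 difference from Day 13 in vivo conceptuses was 1.76. From Day 7 in vitro blastocysts the difference was 0.63. With the control mean as a covariate the same IFNT2 differences were 1.11 ± 1.35 and 0.22 ± 1.24. The part of labelling or hybridisation in the IFNT2 difference was not tested beyond these values. The summed level of the trophoblast markers, which mark the cells that make interferon tau, overlapped between the Day 13 groups. It was 15.89 to 16.57 in the in vitro pools and 15.85 to 16.09 in the in vivo pools. Still, 10 of 12 had a higher mean in vitro, with a median difference of 0.94, against 0.09 over all genes above background. By limma 0 of the 12 were called, where 1.64% of all genes were. At an unadjusted p under 0.05 were 5 (41.7%), against 21.2% of all genes. The sums of other lineages did not overlap, and each sum follows its brightest probe sets. The 3 epiblast markers summed to 9.77 to 10.32 in the in vitro and 11.21 to 11.93 in the in vivo pools. CRIPTO made up most of that sum, at 9.72 to 10.27 and 11.14 to 11.65, and SOX2 was at background. The 8 hypoblast markers summed to 12.36 to 13.08 and 13.81 to 14.98, with TTR and AFP at background. The 5 hypoblast markers above background all had lower means in vitro, with APOA2 called and GATA6 overlapping. The part of cell make-up in the IFNT2 difference was not tested.

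**Figure D3:**
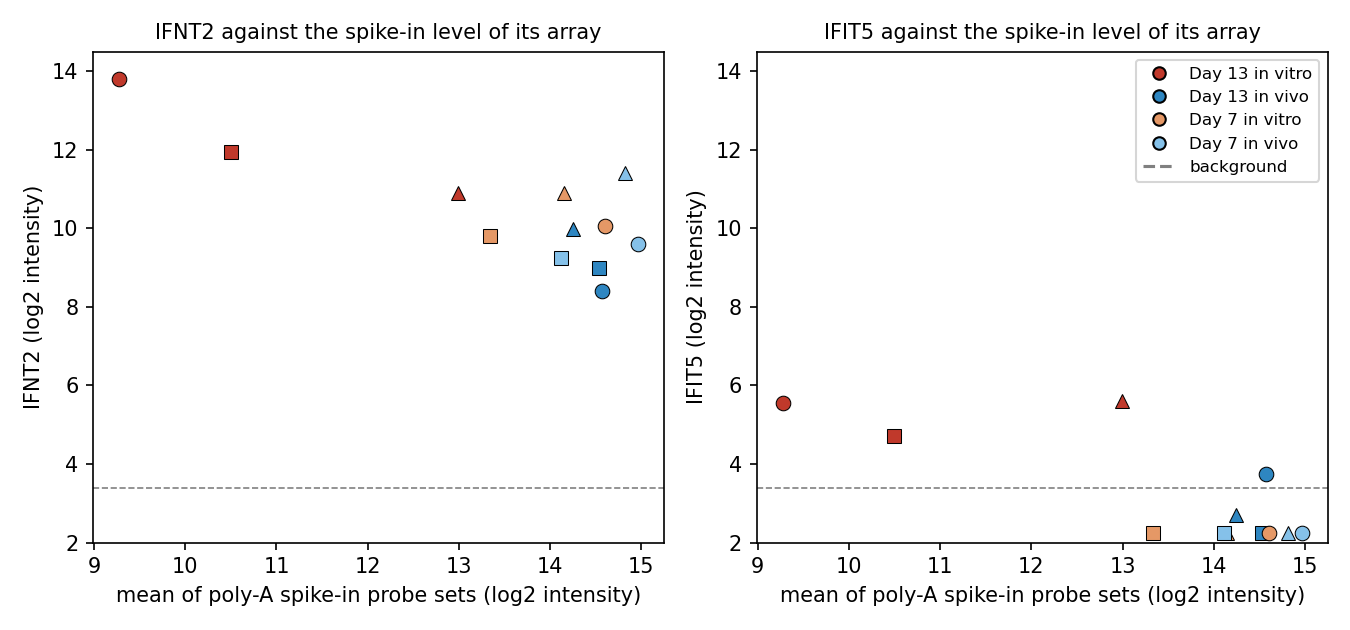
IFNT2 (one panel) and IFIT5 (the other) on each array, in log2 intensity, against the mean of the poly-A control probe sets on the same array, coloured by group. Day 13 in vitro replicates 1 and 2 lie alone at the low end of the control axis, at 9.27 and 10.50.

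The RefSeq gene table lists 2 interferon tau genes for cattle, IFNT2 and IFNT3, on the same chromosome with 1 gene listed between them. Interferon tau genes are very alike, and no probe set named IFNT3 alone. The IFNT2 values may therefore hold signal from other interferon tau copies, and are uncertain to that extent.

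Nothing of the receptor for this signal exceeded background. IFNAR1 and IFNAR2, the chains of the type I interferon receptor, reached at most 2.23 and 2.74 on any array. IFNGR2, a chain of the receptor for interferon gamma, reached at most 3.17. JAK1, a kinase bound to the type I receptor and to many cytokine receptors, was the measured exception in this role. It measured 8.09, 8.77 and 6.67 in Day 13 in vitro conceptuses, 7.13, 7.65 and 7.10 in Day 13 in vivo conceptuses, 7.63, 8.0 and 7.37 in Day 7 in vitro blastocysts and 7.10, 8.40 and 8.60 in Day 7 in vivo blastocysts. JAK1 levels overlapped between all groups compared, and its day differences were 0.17 ± 0.57 in vitro and -0.74 ± 0.57 in vivo.

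Among the transcription factors, IRF3 and IRF7 were measurable and STAT2, IRF2 and IRF9 were at or near background. IRF3, which turns on interferon genes after viral sensing, measured 6.02, 6.29 and 5.42 in Day 13 in vitro conceptuses, 5.78, 7.65 and 3.14 in Day 13 in vivo conceptuses, 7.83, 6.07 and 8.09 in Day 7 in vitro blastocysts and 6.76, 6.12 and 7.68 in Day 7 in vivo blastocysts. The day groups overlapped in both origins, with IRF3 differences of -1.41 ± 1.07 in vitro and -1.33 ± 1.07 in vivo that were not called (adjusted p = 0.618 and 0.614). The lowest IRF3 value, 3.14 in Day 13 in vivo replicate 3, was the only one below background.

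IRF7, which amplifies the interferon response and is itself interferon-inducible, ran from 4.75 to 6.26 over the arrays. It measured 4.75, 5.19 and 5.19 in Day 13 in vitro conceptuses, 5.19, 6.26 and 5.19 in Day 13 in vivo conceptuses, 6.01, 5.19 and 6.14 in Day 7 in vitro blastocysts and 5.28, 5.19 and 5.23 in Day 7 in vivo blastocysts. On 6 of the 12 arrays IRF7 had the same value to within 0.01. Repeated values of this kind are common in the table: 12.6% of the 10591 probe sets above background on at least 3 arrays have 1 value on at least 5 arrays. STAT2, a transcription factor of the type I response, sat at 2.78 on 11 arrays and reached 3.56 in Day 7 in vivo replicate 2. IRF9, which binds DNA together with STAT2, reached at most 2.45, and IRF2, a repressor of the response, at most 2.41.

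Of the ISG15 system, which tags proteins with a ubiquitin-like molecule, ISG15 itself was at background on all arrays, at no more than 2.24. UBA7 and UBE2L6, which activate ISG15 and pass it on, reached at most 2.23 and 2.49. USP18, which removes ISG15 from proteins and blocks the type I receptor, was the one above background, though at 1 repeated value on 8 arrays. It measured 5.01 in all 3 Day 13 in vitro pools and 5.43, 6.72 and 7.26 in the Day 13 in vivo pools, against 5.01, 5.01 and 5.03 in Day 7 in vitro pools and 5.01 in all 3 Day 7 in vivo pools. The 3 Day 13 in vivo pools were therefore higher than the other 9, of which 8 shared 1 value. The USP18 differences given next are therefore taken against a repeated value.

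USP18 exceeded its Day 7 level by 1.46 ± 0.37 in embryos made in vivo (95% interval 0.60 to 2.32, adjusted p = 0.0854) and was lower in Day 13 in vitro than in Day 13 in vivo conceptuses by a log2 difference of -1.46 ± 0.37 (adjusted p = 0.113). Neither passed the test, although the groups did not overlap. The SE and interval share 1 spread over the 4 groups, and pools at a repeated value add almost none to it. They therefore understate the spread of the Day 13 in vivo pools. The USP18 day difference in vitro was -0.01 ± 0.37. Another USP18 probe set, between 2.63 and 4.13, did not show the difference, with 3.22, 3.76 and 3.57 in Day 13 in vivo pools against 4.13, 3.22 and 3.22 in Day 7 in vivo pools. The 2 further USP18 probe sets stayed at 2.23.

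The antiviral effectors made up the largest group, with 19 genes measured. Of them 13 stayed at background on all arrays: MX1 and MX2, dynamin-like GTPases that block virus replication, reached at most 2.52 and 2.23, IFIT2, an RNA-binding relative of IFIT5, at most 3.18, and RSAD2, known as viperin, at most 2.29. The others in that state were IFI6, IFI27, IFI44, IFI44L, OASL, XAF1, TRIM21, PARP14 and GBP5, none above 2.91. These include the classical markers by which an interferon response is recognised in endometrium.

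IFIT5, an RNA-binding antiviral protein, was the one gene of the 34 that was called in any of the 5 comparisons, where 0.295% to 10.8% of all genes were. It measured 5.54, 4.72 and 5.60 in Day 13 in vitro conceptuses, against 2.23 in all 3 Day 7 in vitro pools. In Day 13 in vivo conceptuses it measured 3.73, 2.23 and 2.69, against 2.23 in all 3 Day 7 in vivo pools. Every Day 13 in vitro pool was above background, 1 of 3 Day 13 in vivo pools was, and no Day 7 pool was.

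IFIT5 rose by 3.06 ± 0.36 at Day 13 in embryos made in vitro (adjusted p = 0.00192), at least 3.73-fold when the Day 7 group is placed at the background. Day 13 in vitro conceptuses exceeded Day 13 in vivo conceptuses in IFIT5 by 2.40 ± 0.36 (adjusted p = 0.0225), with means of 5.29 ± 0.49 and 2.89 ± 0.77 (SD, n = 3 each). As 2 of the 3 Day 13 in vivo pools were at background, that difference is not exact, and with those pools placed at the background IFIT5 was at least 3.44-fold higher in the in vitro conceptuses. The SE shares 1 spread over the 4 groups, and the Day 7 pools, all at the same low value, added almost none to it. In the fit to the 6 Day 13 arrays alone, IFIT5 was not called between the origins (adjusted p = 0.367 in limma). The IFIT5 day difference in vivo was 0.65 ± 0.36 (-0.18 to 1.49, adjusted p = 0.546). The test of the difference between the day effects gave 2.40 ± 0.51 with an adjusted p of 0.127, so IFIT5 was not shown to change differently with day in the 2 origins.

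Within the Day 13 in vitro pools IFIT5 did not follow the order of the poly-A controls. Day 13 in vitro replicate 3, whose control mean of 12.99 was nearest to those of the other arrays, had the highest IFIT5 level, 5.60. Without replicates 1 and 2, which leaves 1 array in that group, the IFIT5 difference from Day 7 in vitro blastocysts was 3.36. From Day 13 in vivo conceptuses the difference was 2.71. With the control mean as a covariate the IFIT5 differences were 3.25 ± 0.63 (adjusted p = 0.0595) and 2.63 ± 0.69 (adjusted p = 0.359). The difference between Day 13 origins also lost its call without Day 13 in vitro replicate 1 (adjusted p = 0.0986), Day 13 in vivo replicate 3 (0.0541) or Day 7 in vitro replicate 1 (0.0548).

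IFITM1, a membrane protein that hinders virus entry and is induced by interferons in many tissues, leaned the other way. It measured 5.69, 5.83 and 6.18 in Day 13 in vitro conceptuses, 6.63, 8.0 and 6.25 in Day 13 in vivo conceptuses, 6.18, 6.12 and 6.18 in Day 7 in vitro blastocysts and 6.18, 5.82 and 6.18 in Day 7 in vivo blastocysts. The Day 13 in vivo pools lay above all others, the nearest at 6.25 against 6.18. IFITM1 differed by 0.90 ± 0.39 between days in vivo (adjusted p = 0.352), by -0.26 ± 0.39 between days in vitro, and by -1.06 ± 0.39 between in vitro and in vivo conceptuses at Day 13 (adjusted p = 0.23). None was called, 5 of the values compared are the repeated 6.18, and the second IFITM1 probe set stayed at 2.23 throughout.

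IFI35, an interferon-inducible protein that also dampens RNA sensing, was steady. Its group means were 7.39 ± 0.37 in Day 13 in vitro conceptuses, 7.06 ± 0.58 in Day 13 in vivo conceptuses, 7.39 ± 0.66 in Day 7 in vitro blastocysts and 7.31 ± 0.52 in Day 7 in vivo blastocysts. All groups overlapped, and the IFI35 day differences were -0.01 ± 0.43 in vitro and -0.25 ± 0.43 in vivo.

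Scattered values above background came from 3 more effectors. EIF2AK2, the RNA-dependent kinase PKR, reached 4.31 and 3.67 in Day 13 in vitro replicates 1 and 3, against at most 2.66 on the other 10 arrays. TRIM25, a ubiquitin ligase that activates RNA sensing, reached 4.44 in Day 13 in vitro replicate 3 and 5.45 in Day 13 in vivo replicate 2, against at most 2.27 in the Day 7 pools. PARP9 reached 4.93 in Day 7 in vivo replicate 1. Neither EIF2AK2 (1.17 ± 0.44 between days in vitro, adjusted p = 0.174) nor TRIM25 (1.40 ± 0.77 between days in vivo, adjusted p = 0.541) was called. SOCS3, the feedback inhibitor that was measured, reached at most 2.51.

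Counted together, the measured genes gave 0 calls for Day 13 against Day 7 in embryos made in vivo, where 5.49% of all 9155 genes were called by limma (2.7% higher and 2.8% lower), and 3 of the 34 (8.82%) had an unadjusted p under 0.05, against 19.0% of all genes. For the same comparison in vitro 1 of 34 was called, where 10.8% of all genes were (5.0% higher and 5.77% lower), and 4 (11.8%) had an unadjusted p under 0.05, against 26.5%. In vitro against in vivo gave 0 calls at Day 7, where 0.295% of all genes were called and 0 of the 34 had an unadjusted p under 0.05, against 8.76% of all genes. At Day 13 the same comparison gave 1 call, where 1.64% of all genes were called (0.852% higher and 0.786% lower), and 6 (17.6%) had an unadjusted p under 0.05, against 21.2%. The difference of the day effect between origins gave 0 calls, where 0.513% of all genes were called and 3 of the 34 had an unadjusted p under 0.05, against 14.2% of all genes.

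The 8 genes above background did not move together. Their median difference between days was 0.03 in vivo and -0.01 in vitro, against 0.02 and -0.02 over all 5803 genes above background. At Day 13 the median difference of in vitro from in vivo conceptuses was 0.36, against 0.09 over all such genes. Groups did not overlap for 4 of the 8 in that comparison, with IFNT2 and IFIT5 higher and USP18 and IFITM1 lower in the in vitro conceptuses. Over all 5803 genes, 29.5% did not overlap there. IFIT5 was above background on 4 arrays, 3 of them Day 13 in vitro, so its place among the 8 follows from the group in which it is high and the count is no support for a difference. Between origins at Day 7 the groups overlapped for all 8, where they did not for 19.3% of all genes above background. Between days, 3 of the 8 did not overlap in vivo (USP18, IFITM1 and, by less than 0.01, IFIT5), against 30.7% of all genes above background, and 1 of the 8, IFIT5, did not overlap in vitro, against 44.5%.

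**Figure D4:**
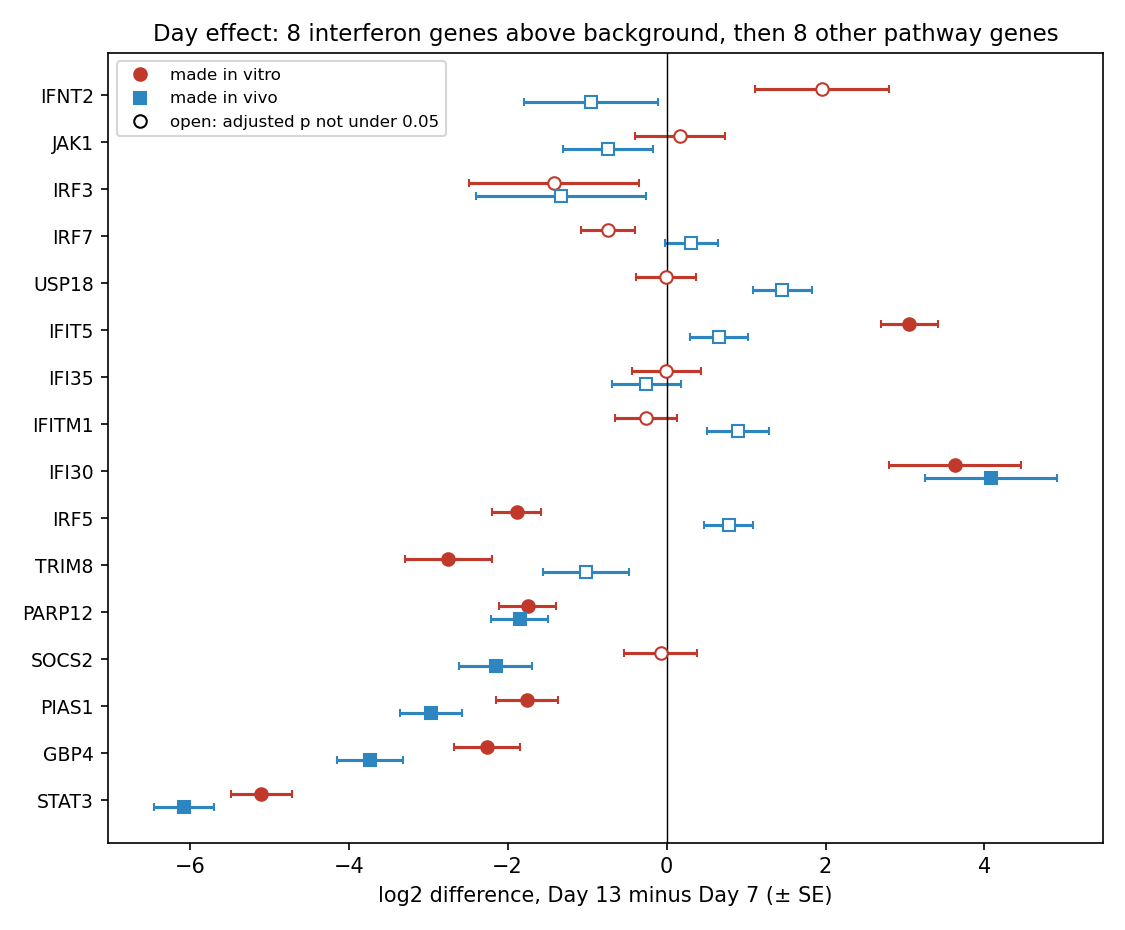
Log2 difference between Day 13 and Day 7 with its SE, for the 8 interferon genes above background and 8 further genes of the pathway, in embryos made in vitro and in vivo. Filled points passed the test and open points did not. Among the 8 interferon genes IFIT5 in vitro is the filled one, and STAT3, GBP4, PARP12 and PIAS1 lie on the negative side in both origins.

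A wider list of the pathway, with 124 further symbols, gave 69 measured genes, 40 of them (58.0%) above background on at least 3 arrays, against 63.4% of all genes. In embryos made in vivo 1 of the 69 rose (IFI30) and 5 fell (STAT3, GBP4, PIAS1, PARP12 and SOCS2) at Day 13, where 2.7% of all genes were called higher and 2.8% lower. In embryos made in vitro 2 rose (IFI30 and ATF3) and 7 fell (STAT3, GBP4, PIAS1, PARP12, IRF5, TRIM8 and PSME1), where 5.0% of all genes were called higher and 5.77% lower. ATF3 and PSME1 lie outside the rule for named genes and are listed to complete the count. With the poly-A mean as a covariate, 1 in vitro call was left, that of STAT3. Without Day 13 in vitro replicates 1 and 2, 1 array was left in that group. The in vitro day differences were then -2.08 for GBP4, 2.80 for IFI30, -1.06 for PARP12, -2.09 for PIAS1 and -1.47 for TRIM8. The median day difference of the 40 was -0.26 in vivo and -0.16 in vitro, against 0.02 and -0.02 over all genes above background. At Day 13 1 of the 69 (1.45%), IRF5, was called lower in in vitro than in in vivo conceptuses. Of all genes 1.64% were called there, and 0.786% were called lower. For origin at Day 7 and for the difference of the day effect 0 of the 69 were called by limma, with 8 and 13 at an unadjusted p under 0.05 (11.6% and 18.8%, against 8.76% and 14.2% of all genes).

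STAT3, which relays signals of the LIF and interleukin 6 family and can also be activated by type I interferon, fell furthest. It measured 2.58, 2.28 and 2.58 in Day 13 in vitro conceptuses, against 7.22, 7.54 and 7.97 in Day 7 in vitro blastocysts. The in vivo pools measured 3.06, 3.19 and 2.67 at Day 13, against 8.85, 8.34 and 9.95 at Day 7. All 6 Day 13 pools were at background and all 6 Day 7 pools above it, so STAT3 was at least 18.2-fold lower at Day 13 in vitro (adjusted p = 0.000183) and at least 50.5-fold lower in vivo (adjusted p = 0.000102). A second STAT3 probe set gave differences of -2.56 in vitro (adjusted p = 0.0735) and -2.73 in vivo (adjusted p = 0.0915).

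GBP4, a guanylate-binding protein of the interferon response, likewise dropped to background. It measured 2.49, 2.96 and 3.0 in Day 13 in vitro conceptuses against 4.81, 5.38 and 5.04 in Day 7 in vitro blastocysts, and 2.96, 3.0 and 2.49 in Day 13 in vivo conceptuses against 7.39, 6.68 and 5.58 in Day 7 in vivo blastocysts. GBP4 was at least 3.22-fold lower at Day 13 in vitro (adjusted p = 0.0141) and at least 8.93-fold lower in vivo (adjusted p = 0.00201). PIAS1, a SUMO ligase that restrains cytokine signalling, fell by 1.76 ± 0.39 in vitro (adjusted p = 0.0304) and by 2.96 ± 0.39 in vivo (adjusted p = 0.00456). The PIAS1 Day 13 pools lay between 4.09 and 6.81 and the Day 7 pools between 7.75 and 8.55. Leaving out Day 13 in vitro replicate 1 (adjusted p = 0.0606) or Day 7 in vitro replicate 3 (0.0505) ended the in vitro call of GBP4. Leaving out any 1 in vitro array of either day, or replicate 3 of the Day 13 in vivo or 1 of the Day 7 in vivo group, ended that of PIAS1 (up to 0.107). The in vivo calls of GBP4 and PIAS1 held with any 1 array left out. They ended in the fit to the 6 arrays of the 2 groups (adjusted p = 0.0892 and 0.128).

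PARP12, an interferon-inducible ADP-ribosyltransferase, fell by 1.75 ± 0.36 in vitro (adjusted p = 0.0224) and by 1.85 ± 0.36 in vivo (adjusted p = 0.0266), with 9.08 to 10.46 over the Day 13 pools and 10.99 to 11.71 over the Day 7 pools. The 3 other PARP12 probe sets stayed at 2.23. IFI30, a lysosomal thiol reductase induced by interferon gamma, rose by 3.63 ± 0.83 in vitro (adjusted p = 0.0348) and by 4.08 ± 0.83 in vivo (adjusted p = 0.0331). The IFI30 Day 13 pools lay between 9.85 and 11.72, above all Day 7 pools, which lay between 5.36 and 8.48. Both PARP12 calls and both IFI30 calls were lost without single arrays. For PARP12 these were, in vitro, Day 13 in vitro replicates 1 and 2 and all 3 Day 7 in vitro arrays, and, in vivo, Day 13 in vivo replicates 1 and 2, Day 7 in vitro replicate 1 and all 3 Day 7 in vivo arrays (adjusted p up to 0.09 in vitro and 0.0894 in vivo). For IFI30 they were, in vitro, Day 13 in vitro replicates 1 and 2, Day 13 in vivo replicate 3, all 3 Day 7 in vitro arrays and replicate 2 of the Day 7 in vivo group (adjusted p at most 0.126). In vivo the IFI30 call held only with replicate 3 of the Day 13 in vitro group, 1 of the Day 13 in vivo group or 3 of the Day 7 in vivo group left out (adjusted p up to 0.11 without the others).

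Some of the pathway genes were called in 1 origin. SOCS2, a feedback inhibitor of cytokine receptors, fell by 2.15 ± 0.46 in vivo (adjusted p = 0.0396), with a day difference of -0.07 ± 0.46 in vitro. TRIM8, a ubiquitin ligase of the interferon and NF-kappaB pathways, fell by 2.75 ± 0.55 in vitro (adjusted p = 0.0195), with a difference of -1.01 ± 0.55 in vivo. The SOCS2 call held only without Day 13 in vivo replicate 2 or 3 (adjusted p up to 0.132 without any other array), and the TRIM8 call ended with replicate 1 or 2 of the Day 13 in vitro group left out, or replicate 1 or 3 of the Day 7 in vitro group (up to 0.0791).

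IRF5, a transcription factor downstream of Toll-like receptors, measured 7.60, 8.06 and 8.58 in Day 13 in vitro conceptuses and 9.35, 10.38 and 10.23 in Day 13 in vivo conceptuses, against 10.05, 9.76 and 10.10 in Day 7 in vitro blastocysts and 9.07, 9.14 and 9.41 in Day 7 in vivo blastocysts. The Day 13 in vitro pools were lower than all other pools. IRF5 fell by 1.89 ± 0.31 between days in vitro (adjusted p = 0.00918) and was lower in Day 13 in vitro than in Day 13 in vivo conceptuses by a log2 difference of -1.91 ± 0.31 (adjusted p = 0.0303). Its day difference in vivo was 0.78 ± 0.31 (adjusted p = 0.294), and the difference of the IRF5 day effects was -2.67 ± 0.44 (adjusted p = 0.0568). Of its other probe sets 1 gave differences of -0.56 and -0.83 in those first 2 comparisons, neither called, and 1 stayed at 2.23. Without Day 13 in vitro replicates 1 and 2, 1 array was left in that group. The IRF5 differences were then -1.39 between days in vitro and -1.41 between Day 13 origins. With single arrays left out, the IRF5 call between origins held only without Day 13 in vitro replicate 3 or Day 13 in vivo replicate 1. Without any other array the adjusted p was up to 0.103.

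The regulators that act on interferon tau genes were looked at last. Of 20 listed, 13 were measured and 11 were above background on at least 3 arrays. In embryos made in vivo 2 of 13 rose and 0 fell, where 5.49% of all genes were called, and in embryos made in vitro 3 rose and 2 fell, where 10.8% were. With origin, 0 of 13 were called by limma at either day, with 7 at Day 13 and 1 at Day 7 at an unadjusted p under 0.05 (21.2% and 8.76% of all genes). For the difference of the day effect 0 were called, with 5 at an unadjusted p under 0.05 (14.2% of all genes).

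ETS2, an activator of the interferon tau promoter, measured 10.42, 10.33 and 10.29 in Day 13 in vitro conceptuses and 10.34, 12.03 and 9.71 in Day 13 in vivo conceptuses, against 8.47, 6.99 and 7.90 in Day 7 in vitro blastocysts and 5.62, 6.97 and 8.01 in Day 7 in vivo blastocysts. All Day 13 pools were above all Day 7 pools. ETS2 rose by 3.83 ± 0.74 in vivo (adjusted p = 0.0257), and its difference in vitro was 2.56 ± 0.74 (adjusted p = 0.0828), where a second ETS2 probe set passed (2.51, adjusted p = 0.0207). On that second probe set the in vivo means were 9.21 at Day 13 and 7.12 at Day 7. Its lowest Day 13 in vivo pool, at 8.09, lay above its highest Day 7 in vivo pool, at 7.48. That Day 13 pool lay below the highest Day 7 in vitro pool, at 8.11. Leaving out replicate 2 of the Day 13 in vitro group, 1 or 2 of the Day 13 in vivo group, or 1 or 2 of the Day 7 in vivo group ended the in vivo call of ETS2 (adjusted p up to 0.0736). IFNT2 was not called in either origin.

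POU5F1, a pluripotency factor known to silence the interferon tau promoter by binding ETS2, measured 5.13, 4.51 and 5.30 in Day 13 in vitro conceptuses and 6.92, 9.43 and 6.72 in Day 13 in vivo conceptuses. In blastocysts POU5F1 measured 11.22, 9.89 and 11.22 at Day 7 in vitro and 9.01, 8.76 and 10.20 at Day 7 in vivo. It fell by 5.80 ± 0.76 at Day 13 in embryos made in vitro (adjusted p = 0.00317), where the days did not overlap, and was not called in those made in vivo, where they did.

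ASCL2, a trophoblast transcription factor, rose in both origins. It measured 10.02, 9.92 and 9.97 in Day 13 in vitro and 9.15, 9.82 and 8.82 in Day 13 in vivo conceptuses, against 5.08, 5.36 and 5.74 in Day 7 in vitro and 5.56, 5.36 and 5.36 in Day 7 in vivo blastocysts. The rise in ASCL2 was 4.58 ± 0.25 in vitro (adjusted p = 3.58e-05) and 3.84 ± 0.25 in vivo (adjusted p = 0.00011). It was called under every alternative tried.

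TFAP2A, an AP-2 factor of trophoblast, was higher in Day 13 in vitro conceptuses, at 9.68, 9.98 and 9.86, than in any other pool, the others lying between 5.07 and 8.33, and rose by 4.17 ± 0.77 between days in vitro (adjusted p = 0.0146). ELF5, a trophoblast factor of the ETS family, was at background in all Day 7 pools and reached 5.22, 6.25 and 4.93 in Day 13 in vitro and 3.06, 4.32 and 4.90 in Day 13 in vivo conceptuses, a rise of at least 4.21-fold in vitro (adjusted p = 0.00604). TEAD4, which drives trophectoderm fate in the mouse, fell by 2.26 ± 0.45 in vitro (adjusted p = 0.0191), to 5.34, 5.57 and 6.01 in Day 13 in vitro conceptuses against 8.04, 7.16 and 8.51 in Day 7 in vitro blastocysts. Without Day 13 in vitro replicates 1 and 2, none of the in vitro calls of ELF5, POU5F1, TEAD4 and TFAP2A held (adjusted p = 0.0997, 0.0756, 0.343 and 0.196). Those of TEAD4 and TFAP2A also ended with replicate 1 or 2 of the Day 13 in vitro group left out, or replicate 1 or 3 of the Day 7 in vitro group (up to 0.0786 for TEAD4 and 0.0602 for TFAP2A).

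**Figure D5:**
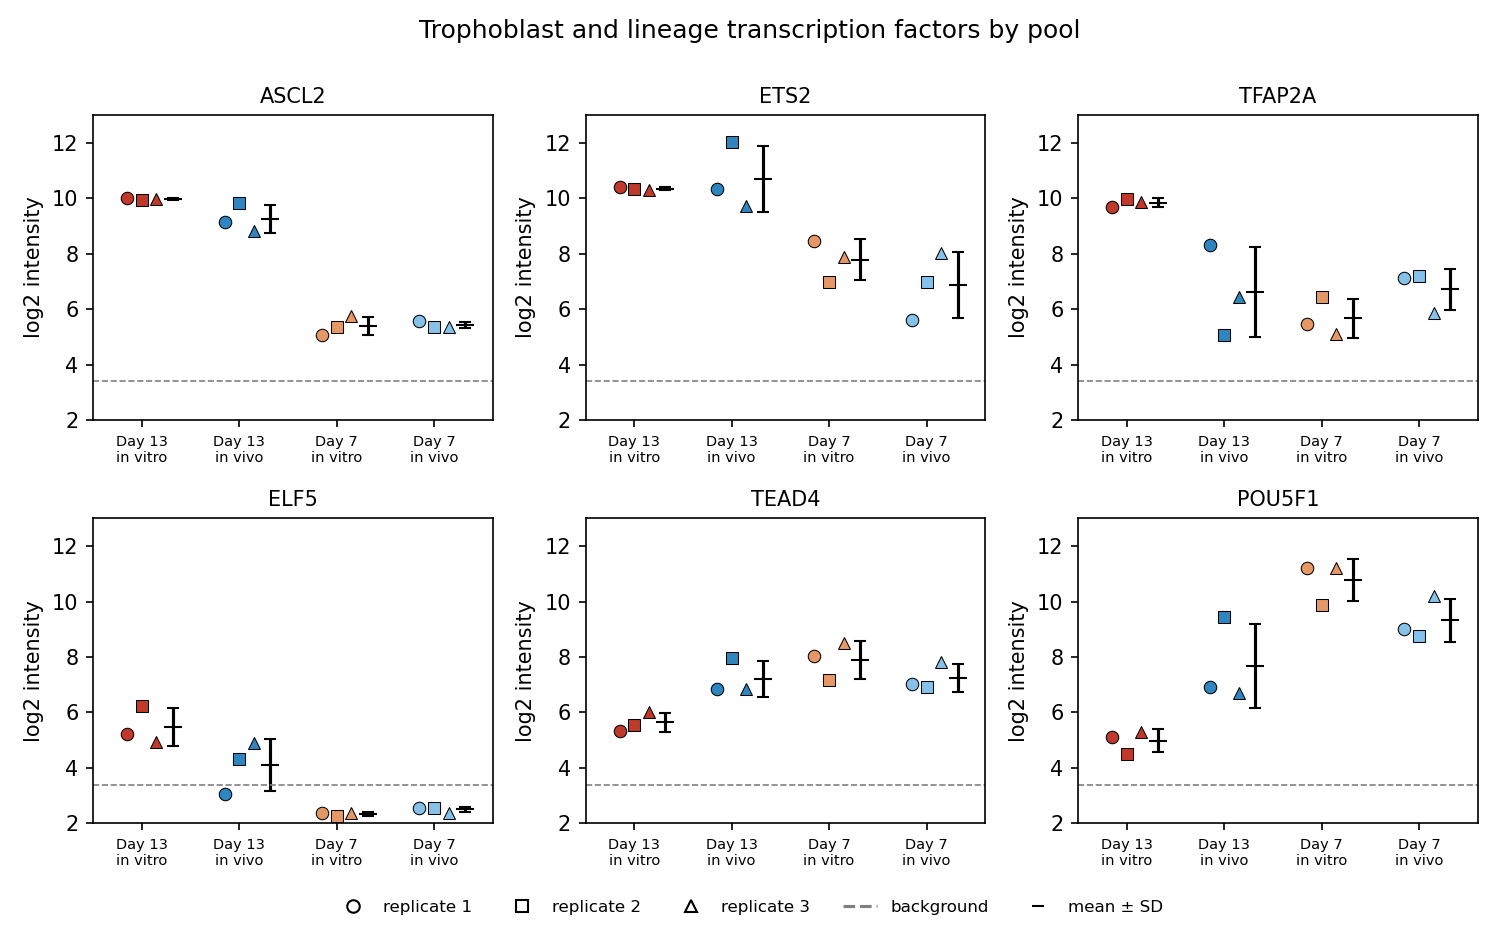
Level of ASCL2, ETS2, TFAP2A, ELF5, TEAD4 and POU5F1 on each of the 12 arrays, in log2 intensity by group, with points for pools and marks for group means ± SD. ASCL2 and ETS2 are higher in all 6 Day 13 pools than in all 6 Day 7 pools, and the lowest POU5F1 and TEAD4 values are those of the Day 13 in vitro pools.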

How the data were processed

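The series table gives 1 log2 intensity per probe set and array, deposited by the authors after their own normalization. Per the submitters' processing notes, RMA, GCRMA and limma were used, with no versions given, and whether RMA or GCRMA made the values is not given in the sources used here. Per the labels, each array received 75 ng of total RNA through an Affymetrix labelling of 2 cycles. Of 24128 probe sets, 112 controls were left out of the tests. Of the rest, 13292 carried 1 symbol, 86 several and 10638 none. For all 51 probe sets of the set the symbol equalled the RefSeq symbol of its Entrez identifier. The array number, not a read depth, limits precision.

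A model with 4 group means was fitted to all 12 arrays with limma 3.58.1 (lmFit and eBayes) in R 4.3.3, with 8 residual degrees of freedom and two-sided tests, and was tested on simulated data. Intervals are 95%. Where a whole group lay at background, the fold is a lower bound from the background of 3.39. That value comes from 48 control probe sets and was chosen with the data known.

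The genes and lists, the wider pathway list and the regulators included, were chosen with earlier results of these data known. Named genes were IFNT2, every listed gene called in any comparison, at most 6 called genes of the wider list per comparison by smallest adjusted p, and at most 6 called regulators. The other listed genes are described by role, each by its level. No sequences are given here.

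Same replicate numbers were checked as a pairing: after group means were removed, r exceeded 0.1 in 3 of 18 same-numbered pairs (median -0.06), so no pairing was used. Alternatives were quantile normalization, centring on medians or on 89 ribosomal protein probe sets, testing only probe sets above background on at least 3 arrays, a variance trend, fits to 6 arrays, a replicate block, the poly-A mean as covariate, every probe set of a gene, and leaving out arrays.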

Additional observations from a re-analysis of the deposited data

Results flagged for a closer look

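The probe set annotated to both OAS1Y and OAS2, antiviral synthetases that sense double-stranded RNA, stood outside the comparisons because it names 2 genes. It exceeded the background of 3.39 on all 12 arrays, at 4.26 in Day 13 in vivo replicate 1 and at 4.14 on the other 11 arrays. With 1 value shared by 11 arrays, the signal above background is not read as expression, and no difference between groups was tested. For the listed genes no group had the 4 arrays that a test of single outlying pools needs.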

How the results depend on the processing

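Calls and IFNT2 differences were recomputed under 22 and 21 alternatives (21 and 20 for the difference of the day effect, which needs all 4 groups). Of the interferon genes, 0 were called at Day 7 between origins in every alternative. Leaving out 1 array gave 0 to 2 calls between days in vivo, 1 to 2 in vitro, 0 to 2 between origins at Day 13 and 0 to 2 for the difference of the day effect. The in vivo count was 2 without Day 13 in vivo replicate 1, which left USP18 and IFNGR2 called. Yet IFNGR2 was at background on all arrays, and the USP18 difference is taken against a repeated value. The Day 13 count was 0 without Day 13 in vitro replicate 1, Day 13 in vivo replicate 3 or Day 7 in vitro replicate 1. Testing only probe sets above background, which lowers the number of tests, gave 1 call between days in vivo (USP18), 3 between origins at Day 13 (IFIT5, IFNT2 and USP18) and 1 for the difference of the day effect (IFIT5). IFIT5 passed that filter through the group in which it is high, and USP18 largely at a repeated value. Their calls under the filter are therefore no support for a difference. Ribosomal protein centring gave 2 at Day 13 (IFIT5 and IFNT2). The poly-A covariate gave 0 in vitro between days and 0 at Day 13, and the fit to 6 arrays gave 0 at Day 13. Leaving out Day 13 in vitro replicates 1 and 2 together leaves 1 array in that group, so the counts of that fit are not listed here. The cause of these changes was not tested.

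IFNT2 between Day 13 origins was called under 3 alternatives: ribosomal protein centring (3.18, adjusted p = 0.0421), the filter on dim probe sets (3.08, adjusted p = 0.031) and without Day 13 in vitro replicate 3 (3.75, adjusted p = 0.0364). It ranged over 2.29 to 3.75 with 1 array left out and down to 1.11 under the poly-A covariate. The IFNT2 day difference ranged over 1.16 to 2.62 in vitro, -1.38 to -0.29 in vivo, and 2.11 to 3.57 for their difference, with 1 array left out. At Day 7 the IFNT2 difference between origins, 0.18, turned to -0.14 under ribosomal protein centring and to -0.16 under the poly-A covariate, and ranged over -0.24 to 0.84 with 1 array left out. Ribosomal protein centring moved the median of all probe sets by -0.36 between days in vivo, -0.32 between origins at Day 7 and 0.42 for the difference of the day effect.

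With a replicate block the IFIT5 calls held (adjusted p = 0.0058 between days in vitro and 0.047 between Day 13 origins), IFNT2 between Day 13 origins was 3.08 (adjusted p = 0.215), and the interferon gene counts were 0, 1, 0, 1 and 0 in the order given in the report. Same-numbered pairs correlated between -0.647 and 0.425, and 0 arrays had their highest correlation in every group with the array of their own number, so the numbers were not read as pairs. Calls of the wider pathway list, 6 in vivo and 9 in vitro, fell to 3 and 4 under the block, and ranged over 1 to 9 and 1 to 16 over all alternatives. The fit to the 6 arrays of a comparison ended further calls. Between days in vivo these were GBP4 and PIAS1 (adjusted p = 0.0892 and 0.128), IFI30 (0.284), PARP12 (0.151), SOCS2 (0.3) and ETS2 (0.258). Between days in vitro they were IRF5 (0.0578), PARP12 (0.107), TRIM8 (0.148) and TEAD4 (0.0875). The IRF5 call between Day 13 origins ended too (0.377).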

Other observations

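FOS, an AP-1 subunit that acts on the interferon tau promoter, was measured among the regulators but was not called, and it is named here after its values were seen. It measured 14.59, 13.79 and 12.91 in Day 13 in vitro conceptuses and 12.20, 9.82 and 9.05 in Day 13 in vivo conceptuses, against 10.35, 10.49 and 9.91 in Day 7 in vitro blastocysts and 9.76, 9.56 and 12 in Day 7 in vivo blastocysts. At Day 13 every FOS value of in vitro origin was above every value of in vivo origin, as for IFNT2. Of all genes above background, 29.5% did not overlap there. The JUN family genes of the same list overlapped there by their brightest probe sets. Their means in vitro and in vivo were 12.28 and 11.86 for JUN, 8.61 and 8.58 for JUNB, and 12.54 and 13.44 for JUND. Some dimmer JUN probe sets did not overlap. The FOS difference was 3.51 ± 0.92 between days in vitro (adjusted p = 0.058 in limma) and 3.41 ± 0.92 between Day 13 origins (adjusted p = 0.125). The poly-A controls of the same Day 13 in vitro arrays, replicates 1, 2 and 3, averaged 9.27, 10.50 and 12.99. Without replicates 1 and 2, which leaves 1 array in that group, the FOS differences were 2.66 and 2.56. A second FOS probe set measured 7.72 and 6.14 on Day 13 in vitro replicates 1 and 2 and 2.23 on the other 10 arrays.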
